A study of Mus musculus with 6 samples.

Results

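The microRNAs (miRNAs) of the miR-130 and miR-301 family were followed in MCT, a renal tubular line from SJL H-2S mice, on one-colour arrays. The arrays carried 4 family members among 611 mouse miRNA entries, chosen by name without star forms: mmu-miR-130a, mmu-miR-130b, mmu-miR-301a and mmu-miR-301b. Treated cells, on 3 arrays, received TGFβ (transforming growth factor beta), a cytokine, at a dose of 3 ng/ml over 72 hours. Untreated control cells of the same line filled the other 3 arrays. All cells were grown in 10% serum and, per the labels' protocols, moved to 0.5% serum ahead of the cytokine. Nothing in the labels says that the arrays of a group came from separate cultures, so p-values measure the spread between these arrays, which may be technical.

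A miRNA guides the Argonaute silencing complex to messenger RNAs through its seed, the bases near its 5′ end, and miRNAs with one seed can act on overlapping sets of targets. The family has been tied to repression of Pparg, a nuclear receptor that drives fat-cell differentiation, and in lung vessels to collagen deposition and matrix stiffness. In kidney tubules TGFβ promotes matrix production and weakens epithelial features, and the series asked which miRNAs change with it.

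The mature sequences below show the seed (bases 2 to 8 from the 5′ end, in capitals) that defines the family, for the 3 of 4 members matched in RefSeq (GRCm38.p6). They come with miR-721, which has the same seed, and with miR-19b and miR-148a, whose seeds share a run of letters with it, offset by a base.
miR-130a-3p: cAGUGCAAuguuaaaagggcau
miR-130b-3p: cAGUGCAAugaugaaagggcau
miR-301a-3p: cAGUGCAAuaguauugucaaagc
miR-721: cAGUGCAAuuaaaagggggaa
miR-19b-3p: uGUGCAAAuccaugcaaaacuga
miR-148a-3p: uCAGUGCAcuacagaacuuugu
The 2 brightest members differed at 2 of 22 bases, written from miR-130a-3p to miR-130b-3p as U11A and A13G (positions from the 5′ end), both outside the seed. How far one hybridises to the probes of the other was not tested. miR-301a-3p shared its first 9 bases with miR-130a-3p. Of 1738 mature mouse entries in the RefSeq table, 7 had the family seed. Of these, 4 were on the array, and miR-130c, miR-6341 and miR-6389 were not.

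In the same build, miR-130a-3p lies at chr2:84741116-84741137 on the minus strand, and no other annotated gene spanned its hairpin gene. miR-130b-3p lies at chr16:17124071-17124092 on the minus strand, in a hairpin gene directly next to that of miR-301b, and 2610318N02Rik spanned both. miR-301a-3p lies at chr11:87113054-87113076 on the plus strand, within Ska2, which encodes a spindle and kinetochore protein.

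On these arrays between 74 and 103 mouse miRNAs were well above background, and the 75th percentile used for scaling was 365.3, 402.4 and 339.9 intensity units on TGFβ 1 to 3, against 363.7, 268.6 and 249.5 on controls 1 to 3. Control 1 stood apart from its group. Its median absolute log2 difference over 84 tested miRNAs was 0.264, 0.214 and 0.164 from TGFβ 1 to 3, and 0.483 and 0.518 from controls 2 and 3, which differed from each other by 0.0578. Controls 2 and 3 also lay 0.422 to 0.583 from the TGFβ arrays. They had 75 and 74 miRNAs well above background, against 86 to 103 on the others, and the largest scaling factors, 1.22 and 1.31. The labels do not settle whether control 1 was a different culture or carries a wrong label. Whether instead controls 2 and 3 are the arrays that differ, being dimmer, was not tested. Every TGFβ minus control value over all arrays includes control 1 as labelled. The tested members and the listed fibrosis miRNAs are therefore given with and without it. Of 7 markers of tubule epithelium, 0 rose well above background on an array (among them miR-192, miR-194, miR-200a, miR-200b and miR-200c), so defining markers of the labelled cell type were not detectable here. Their summed scaled signal, with each value below 1 raised to a floor of 1, was 11.0 to 13.6 in TGFβ-treated cells. In control cells it was 10.9 to 13.9. miR-194, miR-200a and miR-200c were at that floor on every array, so the sums are not a measured level. Markers of other cells well above background on an array numbered 0 of 6 for blood cells, 0 of 2 for endothelium and 0 of 5 for smooth muscle and fibroblasts.

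The family was unequally measurable. miR-130a and miR-130b were well above background on all 6 arrays, miR-301a on 1 and miR-301b on none. So 2 of 4 members passed the filter on dim miRNAs, which kept 84 in all, and both passed it in either group.

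miR-130a, which has no other family member beside it in the genome, had scaled signals of 137.9, 121.7 and 115.1 on TGFβ 1 to 3, against 112.3, 214.5 and 208.2 on controls 1 to 3. The 3 TGFβ arrays lay together, well below controls 2 and 3, while control 1 read lower than any TGFβ array, so the groups overlapped. On the log2 scale the means were 6.96 ± 0.13 in TGFβ-treated cells and 7.42 ± 0.53 in control cells (SD, n = 3 each). The log2 difference, TGFβ minus control, was -0.46 (SE 0.28, limma adjusted p = 0.433), and miR-130a did not pass the threshold.

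miR-130b, which shares a locus with miR-301b, had scaled signals of 64.6, 57.4 and 58.5 on TGFβ 1 to 3, against 69.5, 79.4 and 81.7 on controls 1 to 3. Every TGFβ array was lower than every control array. Of all tested miRNAs, 5 (5.95%) had non-overlapping groups in the lower direction. The log2 means were 5.91 ± 0.09 in TGFβ-treated cells and 6.26 ± 0.12 in control cells (SD, n = 3 each). The difference was -0.35 (SE 0.14), with an unadjusted limma p of 0.0473 and an adjusted p of 0.391, so miR-130b did not pass either.

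**Figure D1:**
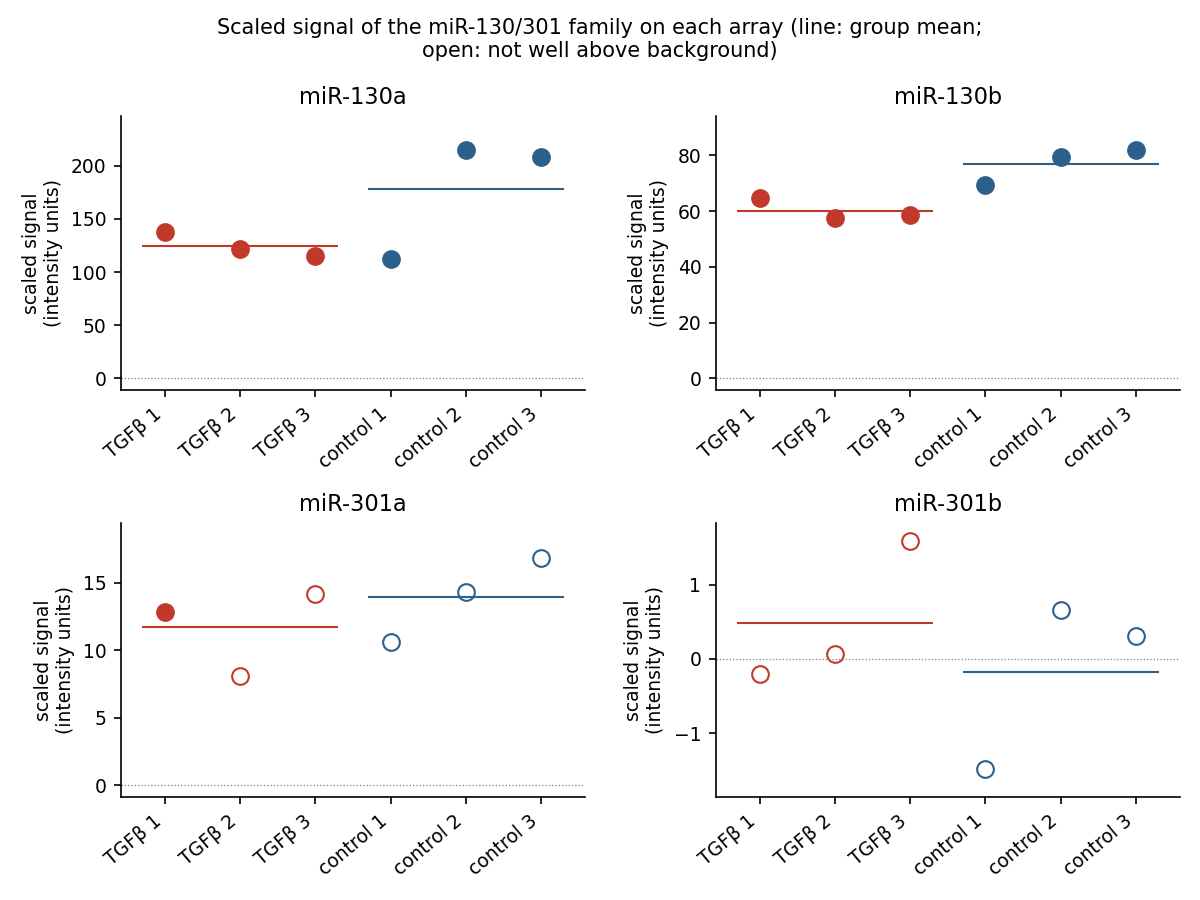
Scaled signal (intensity units) of the 4 members on each array, with TGFβ arrays in red and control arrays in blue. Lines are group means and open circles mark arrays where the member was not well above background. miR-130a is high on controls 2 and 3, miR-130b is lower on every TGFβ array than on any control array, and miR-301a and miR-301b are near background.

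Across all tested miRNAs limma called 0 of 84 (0%) at an adjusted p under 0.05, and with the replicate number as a block it called 1, which was no family member. At an unadjusted p under 0.05 there were 8 (9.52%), and 3 of them (3.57%) were lower in TGFβ-treated cells, miR-130b among these. Differences below 0 were found for 49 of 84 miRNAs (58.3%), so the shared direction of the tested members, 2 of 2 lower, was also that of most others. The median difference over all tested miRNAs was -0.09. miR-130a lay 0.37 and miR-130b 0.26 below that median, at ranks 9 and 15 of 84 counted from the lowest difference.

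These values depended on how the arrays were scaled. Before scaling, miR-130a read 154.2, 149.8 and 119.7 intensity units on TGFβ 1 to 3, against 125.0, 176.3 and 159.0 on controls 1 to 3. miR-130b read 72.2, 70.7 and 60.9 on TGFβ 1 to 3, against 77.4, 65.3 and 62.4 on controls 1 to 3. In these unscaled values the groups overlapped for both members, and for miR-130b control 1 was highest and TGFβ 3 lowest. The log2 difference without scaling was -0.11 (SE 0.20) for miR-130a and -0.0074 (SE 0.17) for miR-130b. Leaving out the scaling moved the median over all tested miRNAs to 0.26, with 17 of 84 (20.2%) below 0. The distances of both members from that median stayed at -0.37 and -0.26. They could not change, since scaling moves all log2 values of an array above the floor by one amount. The lower scaled signal of both members is thus a position relative to the other miRNAs of each array.

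**Figure D2:**
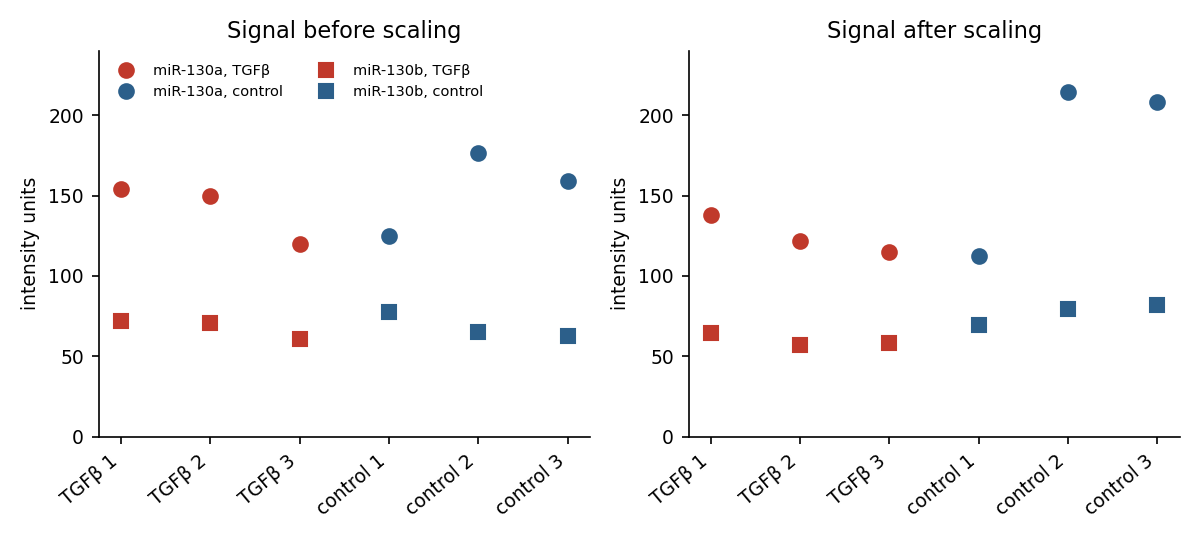
Signal of miR-130a (circles) and miR-130b (squares) in intensity units on each array, before scaling on the left and after scaling on the right, with TGFβ arrays in red and control arrays in blue. Before scaling the groups overlap for both members. After scaling miR-130b no longer overlaps, and for miR-130a control 1 lies just below the TGFβ arrays, while controls 2 and 3 lie above them.

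Without control 1, both members passed. miR-130a fell by 0.77 on the log2 scale (SE 0.12, limma adjusted p = 0.0157), which is 0.587 times its level on controls 2 and 3. miR-130b fell by 0.43 on that scale (SE 0.11, limma adjusted p = 0.0404), or 0.742 times. In that fit 31 of 85 miRNAs passed (36.5%), 20 of them lower (23.5%), and the 2 members ranked 6 and 21 from the lowest difference. Control 1 is the control nearest to the TGFβ arrays, and the adjusted p-values do not allow for leaving it out on that account. With array weights, which let limma weigh arrays by their spread, both also passed, among 45 of 84 (53.6%) in either direction and 27 (32.1%) in the lower one. Without control 1 and TGFβ 1 together, a choice made after seeing the data, both passed among 35 of 85 (41.2%). With each of the other 5 arrays left out in turn neither member passed, nor did any other tested miRNA. The differences of the members then lay between -0.53 and -0.30 for miR-130a and between -0.40 and -0.30 for miR-130b. In bulk RNA, a lower share of cells with a miRNA and less of it per cell cannot be told apart.

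**Figure D3:**
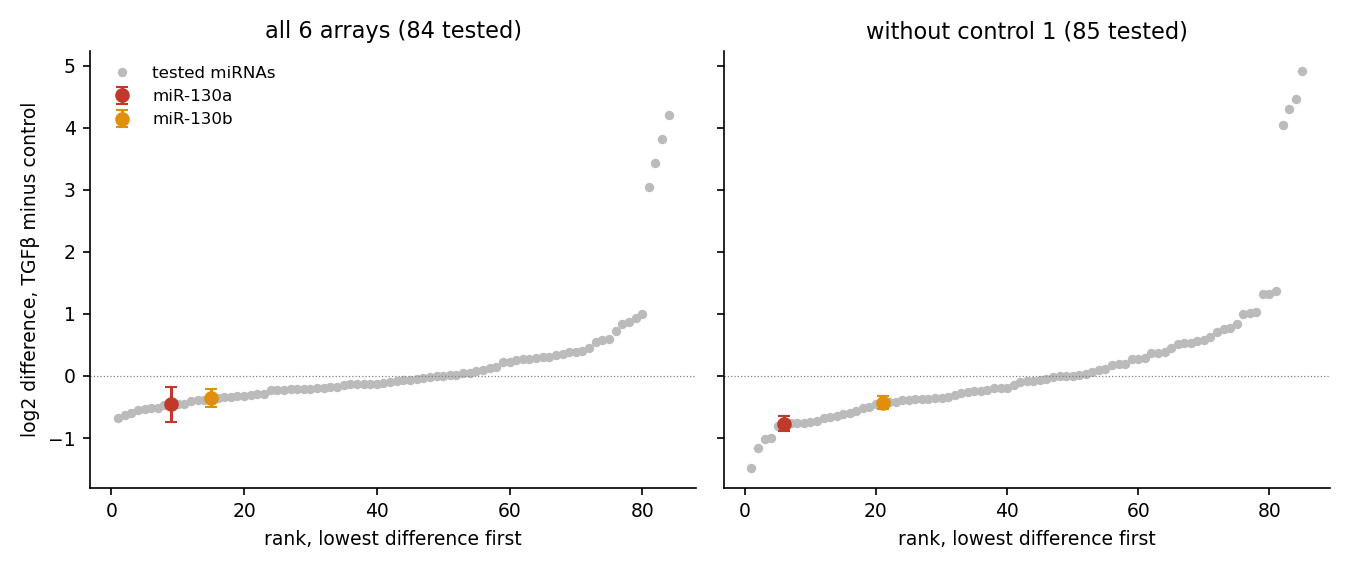
Log2 difference, TGFβ minus control, of every tested miRNA (grey), ranked from the lowest, with miR-130a in red and miR-130b in orange (bars: SE), for all 6 arrays on the left and without control 1 on the right. The members lie at ranks 9 and 15 of 84 on the left, and at ranks 6 and 21 of 85 on the right.

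The arrays sat on one slide, and its columns, as the scan positions give them, held both groups in 2 cases. The pair of column 1, TGFβ 2 and control 1, differed by 0.12 log2 units for miR-130a and by -0.28 for miR-130b (TGFβ minus control). The pair of column 2, TGFβ 3 and control 2, differed by -0.90 for miR-130a and by -0.44 for miR-130b. Row 1 held TGFβ 1 and all 3 controls, and row 2 held TGFβ 2 and 3 alone, so row and treatment were partly confounded. Within row 1, TGFβ 1 minus the mean of the 3 controls was -0.31 and -0.25. For miR-130b each of these comparisons had to come out below 0, since its groups did not overlap, and for miR-130a the one above 0 was the pair with control 1. With the column as a block the differences rest on these 2 pairs alone, since column 3 held only control 3 and column 4 only TGFβ 1. Neither member passed in that fit (limma adjusted p = 0.941 for both), nor did any other miRNA (0 of 84). With so few arrays to compare, it cannot decide whether the members changed.

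The difference between both members on the same array is free of the scaling. miR-130a minus miR-130b was 1.10, 1.08 and 0.98 log2 units on TGFβ 1 to 3, against 0.69, 1.43 and 1.35 on controls 1 to 3. The TGFβ arrays fell between control 1 and the other controls. The mean was 1.05 ± 0.07 in TGFβ-treated cells and 1.16 ± 0.41 in control cells (SD, n = 3 each), a difference of -0.11 (exact two-sided permutation p = 0.8, 1 pair of members tested, smallest possible p 0.1). An unequal response of the 2 members was not detectable with all arrays, given this spread. Without control 1 the difference was -0.34 (exact permutation p = 0.2, the smallest that 3 against 2 arrays can give), with miR-130a further down than miR-130b on each of the 3 TGFβ arrays.

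The order of the arrays in scaled signal was also seen on single probes, over the spots not marked as outliers. Spots are repeats within an array and share its scaling factor. On probe A_54_P1044 of miR-130a, the spots lay between 68.96 and 107.2 scaled units over the TGFβ arrays and between 63.4 and 101.5 on control 1. On controls 2 and 3 they lay between 120.7 and 158.0. On probe A_54_P1045 the spots lay between 116.7 and 191.1 over the TGFβ arrays, between 103.1 and 175.4 on control 1, and between 257.8 and 311.6 on controls 2 and 3. For both probes, every scaled spot of controls 2 and 3 was thus brighter than every scaled spot on the other 4 arrays. No scaled spot of control 1 reached the level of its group. Before scaling the groups overlapped. On A_54_P1044 control 3 ran from 92.1 to 117.4 intensity units, and TGFβ 1 from 96.8 to 119.8. On A_54_P1045 control 3 ran from 207.5 to 216.3 and TGFβ 2 from 143.8 to 233.4. There TGFβ 3 and control 1 stayed lower, at up to 173.9 and 195.3.

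miR-130b rested on a single probe. Probe A_54_P1266 was well above background on all 6 arrays, and its log2 difference was -0.37 (SE 0.15, limma adjusted p = 0.395 over 128 probes tested on their own, of which 0 passed, 0%, and 12, 9.38%, had an unadjusted p under 0.05). Its spots lay between 83.9 and 133.8 scaled units over the TGFβ arrays, between 110.9 and 145.8 on control 1, and between 125.7 and 176.8 on controls 2 and 3. After scaling, every spot of the TGFβ arrays was dimmer than every spot of control 3. Every scaled spot of TGFβ 2 and 3 was dimmer than every scaled spot of control 2. The scaled spots of control 1 overlapped with those of each TGFβ array, and those of TGFβ 1 with those of control 2. Before scaling, each TGFβ array overlapped with controls 2 and 3. For example, TGFβ 1 ran from 106.9 to 149.6 intensity units and control 3 from 102.4 to 127.7. The separation of the spots thus depended on the scaling. The second probe, A_54_P1265, was not well above background on any array. The differences of the miR-130a probes were -0.44 (SE 0.24) and -0.47 (SE 0.30), with limma adjusted p of 0.419 and 0.448.

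**Figure D4:**
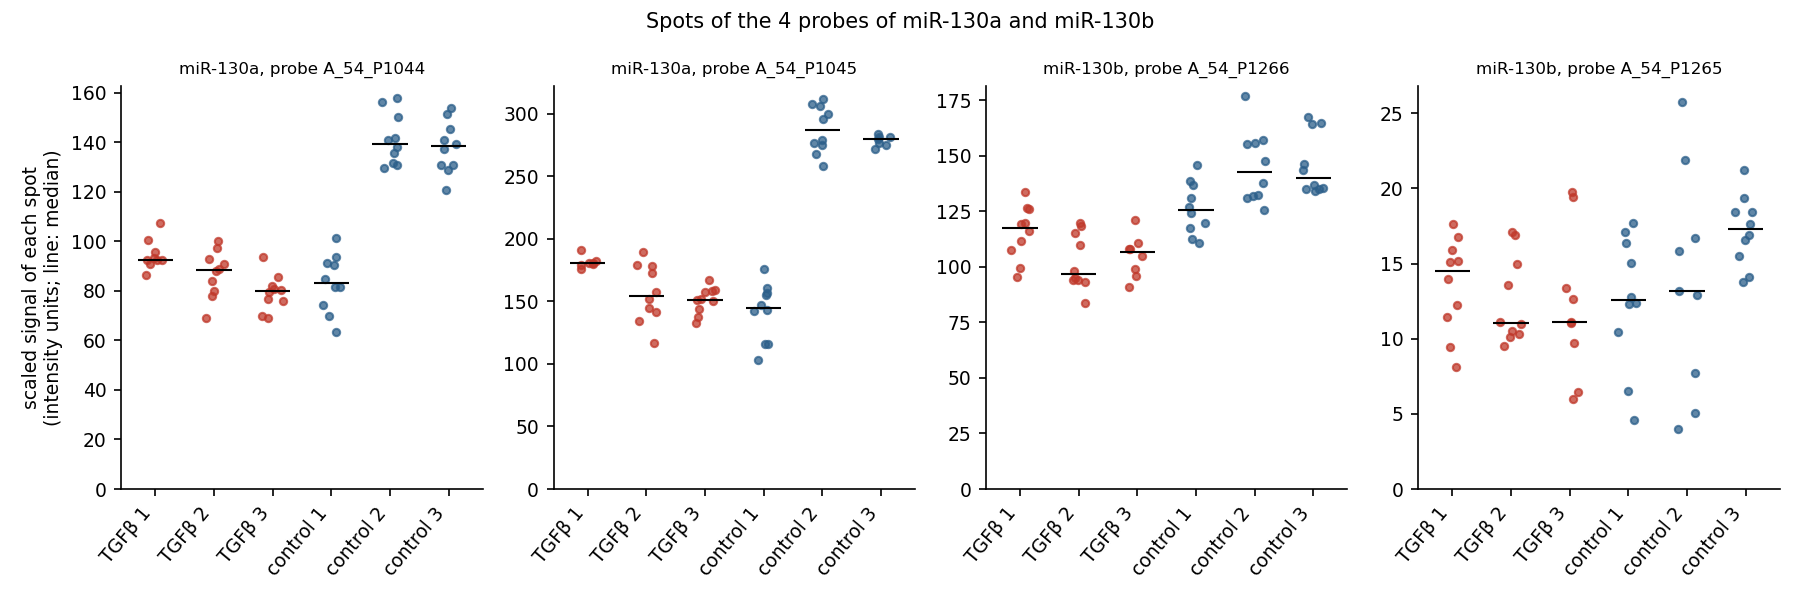
Scaled signal (intensity units) of every spot not marked as an outlier, for the 2 probes of miR-130a and the 2 probes of miR-130b on each array (line: median; TGFβ red, control blue). On both miR-130a probes controls 2 and 3 are clear of the other 4 arrays, on probe A_54_P1266 of miR-130b control 3 is clear of the TGFβ arrays and control 1 overlaps with each of them, and probe A_54_P1265 is near background throughout.

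miR-301a, encoded within Ska2, had scaled signals of 12.9, 8.12 and 14.1 on TGFβ 1 to 3, against 10.6, 14.4 and 16.9 on controls 1 to 3. The groups overlapped. The software marked 5, 1 and 5 of its 20 spots as well above background on TGFβ 1 to 3, and 1, 1 and 2 of 20 on controls 1 to 3. One of its 2 probes, A_54_P2440, reached the rule of at least 0.5 of its spots on TGFβ 1 alone. It did so at 21.97 scaled units, and missed it on control 3 at 29.38. The marks were set before scaling. The lowest scaled signal of any probe well above background was 20.1, 19.45 and 21.5 on TGFβ 1 to 3. On controls 1 to 3 it was 21.7, 30.32 and 36.37. The counts of marked spots therefore do not compare the level of miR-301a between the groups. No fold is given, since most arrays of both groups hold only background-level signal for it.

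miR-301b, the neighbour of miR-130b in the genome, was not well above background on any array. Its scaled signals were -0.20, 0.07 and 1.58 on TGFβ 1 to 3, against -1.48, 0.66 and 0.30 on controls 1 to 3. Of its 20 spots on 4 probes, 0 were marked on each TGFβ array, and 1, 1 and 0 on controls 1 to 3. The opposite arm miR-130b*, the only one of the family on the array, was not well above background on any array either, so the locus of miR-130b and miR-301b was read through miR-130b alone.

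Of the 6 listed miRNAs on the array with the same or a shifted seed, 1 was tested, miR-19b of the miR-17/92 clusters. It had scaled signals of 142.8, 69.6 and 90.1 on TGFβ 1 to 3, against 104.0, 94.5 and 92.8 on controls 1 to 3. The values overlapped, with TGFβ 1 highest and TGFβ 2 lowest, and the log2 difference was -0.0094 (SE 0.28, limma adjusted p = 0.987). miR-721, with the family seed, was well above background on TGFβ 1 only, at 18.7 scaled units there, 9.35 and 2.77 on TGFβ 2 and 3, and 8.05 on control 1. It was at the floor of 1 on controls 2 and 3. miR-19a, miR-148a, miR-148b and miR-152 stayed at background level throughout.

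Of 14 miRNAs reported with TGFβ or fibrosis, 7 were tested, 5 higher and 2 lower in TGFβ-treated cells, with a median of 0.23 beside -0.09 over all tested miRNAs. With all arrays 0 of the 7 passed in limma, with adjusted p from 0.391 to 0.721. Without control 1, 4 of the 7 passed, 2 higher and 2 lower, beside 31 of 85 (36.5%) over all miRNAs tested in that fit, of which 20 (23.5%) were lower. The median of the 7 was then 0.46, beside -0.09 over all. The list was chosen with earlier results of these data known, so its medians are descriptions only. Of those that passed, miR-34a differed by 1.31 (SE 0.15) without control 1, against 0.87 (SE 0.40) with all arrays. miR-29a differed by 0.63 (SE 0.14) without it and by 0.39 (SE 0.25) with all arrays. On the lower side, miR-30a differed by -0.998 (SE 0.22) without it and by -0.68 (SE 0.33) with all arrays, and miR-27b by -1.02 (SE 0.18) and -0.63 (SE 0.36) in the same order. miR-21, raised in injured kidney, did not pass either way, with 0.58 (SE 0.23) without control 1 and 0.40 (SE 0.26) with all arrays. Nor did the collagen-targeting miR-29b, with 0.46 (SE 0.38) and 0.23 (SE 0.37), and miR-29c, with 0.19 (SE 0.21) and 0.13 (SE 0.21), in that order.

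The tested miRNAs outside the family whose log2 scaled signal followed miR-130a most closely over the 6 arrays were miR-24 (Pearson r = 0.995), miR-27b (r = 0.994) and let-7g (r = 0.979). For miR-130b they were miR-324-5p (r = 0.971), miR-30a (r = 0.929) and let-7i (r = 0.898), and between both members r was 0.853. These are descriptions over 6 arrays that share a slide and one scaling factor each, in which controls 2 and 3 lay above the other 4. miR-27b read 4.49, 4.08 and 4.03 log2 units on TGFβ 1 to 3, against 4.06, 5.28 and 5.15 on controls 1 to 3.

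**Figure D5:**
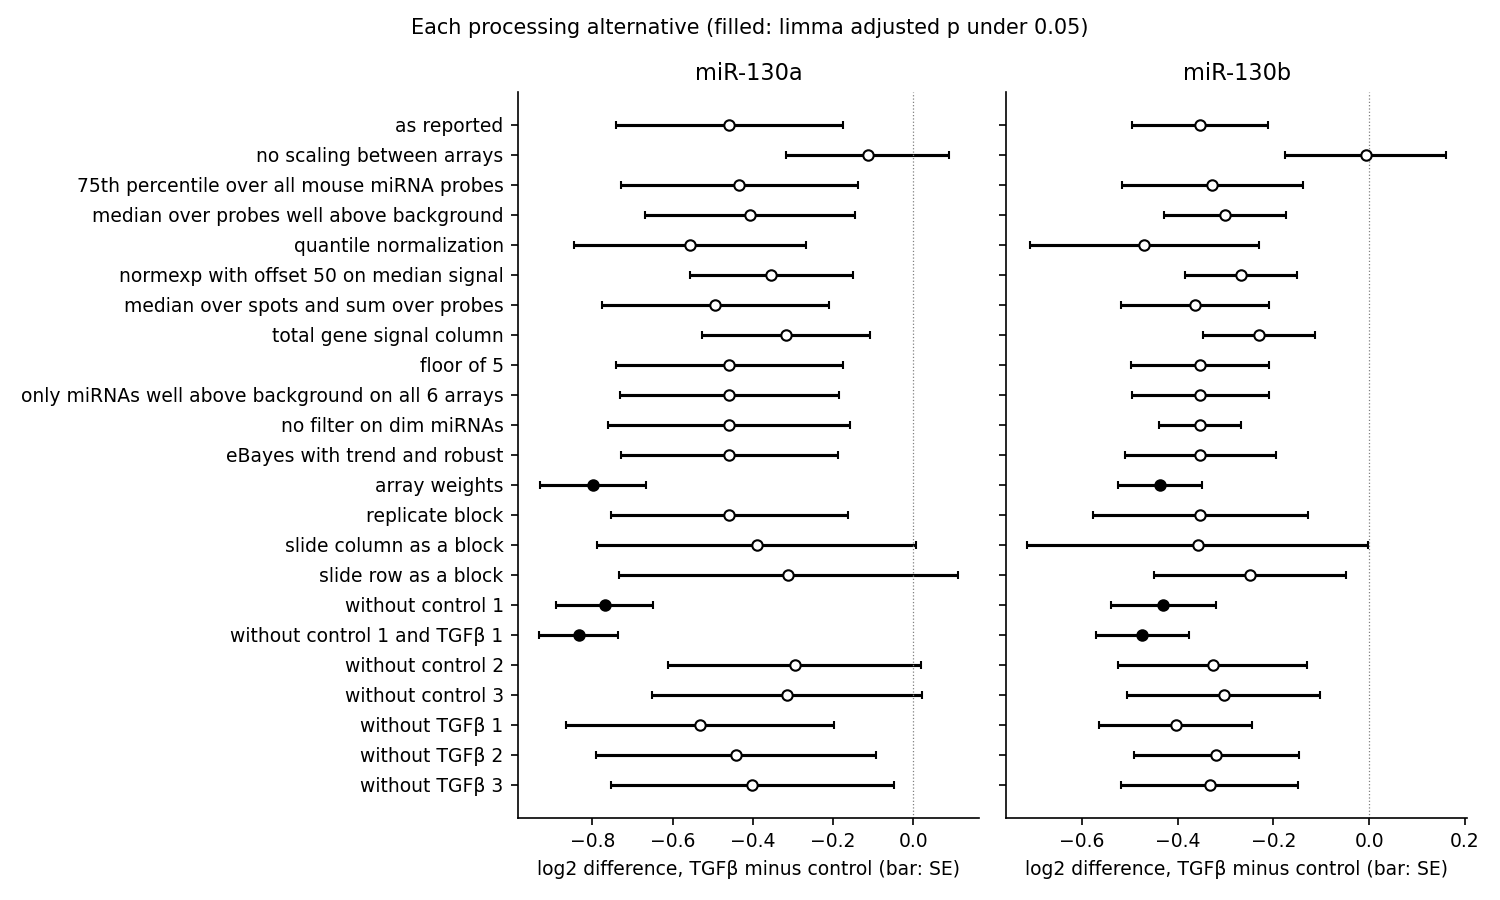
Log2 difference, TGFβ minus control, of miR-130a (left) and miR-130b (right) as reported and under each processing alternative (bars: SE; filled: limma adjusted p under 0.05). All values are below 0, the smallest without scaling between arrays (-0.11 and -0.0074), and both members pass with array weights, without control 1, and without control 1 and TGFβ 1.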

How the data were processed

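Per the file headers, each spot of the deposited scanner files has a fluorescence intensity after background subtraction by Agilent Feature Extraction, and arrays were not brought to one scale. The headers give version 10.7.3.1 and an array design on mm9, and the submitters' processing notes give version 10.1.1. The deposited value table held the same intensity values (largest difference 0). No spot was saturated.

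Groups came from the sample titles. Spots of a probe were averaged without outlier-marked spots, then the probes of a miRNA (1 to 4 probes, 5 to 20 spots each). Scaling used the 105 probes that were well above background throughout: signals were divided by the array's 75th percentile of those probes, then multiplied by the geometric mean of the 6 percentiles. A floor of 1 was set and log2 taken. A probe needed the flag for signal well above background on at least 0.5 of its spots, and a miRNA needed it on any probe. A miRNA was tested if well above background on all 3 arrays of a group. limma 3.58.1 in R 4.3.3 was used (two-sided, Benjamini-Hochberg over all tested miRNAs, threshold 0.05). It was also run on simulated data in which each miRNA varied independently. Shifts shared by many miRNAs of an array, as seen between the controls here, were not simulated. Exact permutation tests used scipy 1.17.1. Same-numbered arrays deviated together from their group means (r = 0.383, 0.373 and 0.521 over 84 miRNAs for numbers 1 to 3). TGFβ 3 did so with control 2 as well (r = 0.385), and the lowest r was -0.482, for TGFβ 3 with control 1. Deviations within a group cancel out, so these r values depend on each other. They cannot show a pairing, and the labels state none. The number of arrays limits the precision.

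The members and all lists were chosen with earlier results of these data known. Named were all members, listed miRNAs well above background on at least 1 array, and for each tested member the 3 miRNAs with the highest correlation. Marker and seed-list entries at background were named beyond that rule, to show what was not measured. Normexp (offset of 50) used median spot signals. RefSeq sequences are from GRCm38.p6.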

Additional observations from a re-analysis of the deposited data

How the results depend on the processing

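Both tested members stayed below 0 under all alternatives run, between -0.83 and -0.11 for miR-130a and between -0.47 and -0.0074 for miR-130b, and their adjusted p lay between 0.00594 and 0.976 and between 0.00915 and 0.995. Some alternatives could not move the differences, among them a floor of 5, other filters on dim miRNAs and the replicate block. Both members passed in 3 fits. Array weights gave -0.80 and -0.44, with 45 of 84 miRNAs passing. Leaving out control 1 gave -0.77 and -0.43 (31 passing). Leaving out control 1 and TGFβ 1, chosen after seeing the data, gave -0.83 and -0.47 (35 passing). Array weights were estimated from the same data, and how much they lowered control 1 was not tested. Over single arrays left out, the number passing ran from 0 to 31, miR-130a from -0.77 to -0.30, miR-130b from -0.43 to -0.30, and the difference between both members from -0.34 to 0.031, above 0 only without control 2. With the replicate block 1 miRNA passed and with the slide row as a block 3 did, none of them a family member. The replicate block left the differences at -0.46 (SE 0.29) and -0.35 (SE 0.22) and changed no call of a member. The unadjusted limma p of miR-130b, 0.0473 as reported, was 0.161 with that block. It was 0.0924 with quantile normalization and 0.966 without scaling. It stayed under 0.05 with a floor of 5, other filters on dim miRNAs, array weights, and in both fits without control 1. Normexp gave -0.35 and -0.27, and quantile normalization -0.56 and -0.47. Signal near background limits what can be said of miR-301a and miR-301b.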
